A study of Sus scrofa with 9 samples.

Results

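The predicted candidates were the small RNAs of porcine granulosa cells (PGCs) that the authors' pipeline assigned to no known miRNA hairpin. It proposed them as new miRNAs from a predicted hairpin in the genome, although a few were near copies of known entries, as given below. The candidates were taken as every entry of the deposited table whose name begins with PC, which gave 228 candidates among 1345 entries. PGCs are the somatic cells that surround and nourish the oocyte. Primary PGCs from healthy follicles were cultured with serum and exposed for 12 h to H2O2, an oxidant used as a model of oxidative stress. The groups were CON without H2O2, LOS with 100 μM H2O2 and MOS with 300 μM H2O2, each with 3 libraries. Whether the libraries of a group came from separate cultures or animals is not stated in the labels, and the p-values therefore cover only the spread among the sequenced libraries, which may be technical. A candidate name gives the predicted arm of the hairpin (5p or 3p), a serial number and, last, a second number.

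A miRNA is cut from a hairpin in steps, first by Drosha in the nucleus and then by Dicer in the cytoplasm, and one strand of the resulting duplex is loaded into an Argonaute protein. The loaded strand finds its mRNA targets mainly through its seed, bases 2 to 8. Fragments of tRNA, rRNA and mRNA fall in the same size range, so a predicted hairpin alone does not establish a miRNA. Mirtrons are a class of miRNAs that bypass Drosha because their hairpin is a short spliced intron, whose 3′ end is the AG of the splice acceptor.

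The sequences below belong to the candidates on which the comparisons turn, in the DNA letters of the deposited table, 5′ to 3′ and with the seed in capitals. The first pair rose already in LOS.
PC-5p-9551_196: cTCCCTGGgctctgcctccc
PC-5p-11132_163: tGTCTAGAaagtctgttgt
The next candidates were low or listed at 0 in CON and LOS and high in MOS.
PC-5p-6765_300: tGTGCTTGgctgaggagc
PC-5p-12443_142: cAGCCTCTggcatgttgga
PC-5p-4753_459: tCCTCCCGcccccccgcctccc
PC-3p-21755_72: tTTTAAGCaggaggtgtc
PC-5p-22188_70: cCTCCACCcgccctccgtcc
PC-3p-13342_131: gGCCGGCGgcggcggcgact
PC-3p-33845_38: gGAGCGGGcgggcggtcc
PC-5p-12571_141: cCACGCCCggggcaccccc
These were called lower in MOS.
PC-5p-44499_24: aCGGCAAGaggcttgtgttt
PC-3p-10435_176: aTATTGATttcaacatttaactgaga
The following were the most abundant candidates over the 9 libraries.
PC-3p-398_12957: aGTAAGGTcagctaagcta
PC-5p-596_7627: aACCATCCtctgctacca

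The deposited values were normalized counts, and the library totals lay between 4967112 (a MOS library) and 6098582 (a LOS library). Nearly all values under 400 (98.3 to 99.9%) were multiples of a step particular to the library, within 0.01. Dividing the total by the step gave a depth estimate that spanned 7793727 to 9321692 for MOS, 8827764 to 13486271 for CON and 12853437 to 16764959 for LOS. In each of the 9 libraries the lowest candidate value above 0 equaled 4 steps, and no candidate was listed at fewer. A value listed at 0 is therefore read here as below the lowest listed value (1.36 to 2.55 normalized counts, depending on the library) and not as absence. Of 7 miRNAs listed as markers of granulosa cells and ovary, 6 were found, among them miR-21 and miR-143. Together they made up 47.0 to 54.1% of the total in CON, compared with 50.9 to 51.9% in LOS and 41.1 to 43.5% in MOS. This share was not split by marker, so it does not by itself establish the cell type. Together, the 3 red blood cell markers came to 0.00412 to 0.00551% in CON and 0.00581 to 0.0156% in MOS. The 3 leukocyte markers summed to 0.0404 to 0.0480% in CON and 0.0196 to 0.0415% in MOS, and in LOS these sums were 0.00446 to 0.00467% and 0.0397 to 0.0463%. The neuronal list, with 1 of 2 markers found, summed to 0.00458 to 0.00555% in CON, 0.00595 to 0.00781% for LOS and 0.00813 to 0.00970% for MOS, without overlap. The endothelial marker and the muscle list (2 of 3 found) overlapped between the groups, within 0.0479 to 0.0705% and 0.0195 to 0.0327%. The part of other cells in the results was not tested.

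The candidates were a minor fraction of the small RNA in every group, but that fraction was larger in MOS. They made up 0.0594 to 0.0781% of all normalized counts in CON, compared with 0.0514 to 0.0671% in LOS and 0.111 to 0.171% in MOS. Values in MOS did not overlap those of the other groups. In CON, PC-3p-398_12957 and PC-5p-596_7627 alone held 57.1 to 68.6% of the candidate sum, against 27.0 to 50.1% in MOS. Without that pair the remaining candidates made up 0.0245 to 0.0275% of the total in CON, compared with 0.0261 to 0.0279% in LOS and 0.0621 to 0.0944% in MOS. Summed values of candidates of 18 to 20 nt were 2474 to 3530 in CON, against 2035 to 2679 in LOS and 4043 to 6775 in MOS. For candidates over 20 nt the sums were 926 to 1137, 1084 to 1146 and 1203 to 1698. Both length classes were thus highest in MOS, with the larger gap in the short class. In the long class the lowest MOS sum, 1203 in library 3, lay close to the highest LOS sum, 1146. PC-5p-4753_459, of 22 nt and tested only through MOS, alone held 269, 282 and 134 of the MOS sums over 20 nt. Those sums were not taken without it. These shares are descriptions without a test, and all candidates share the same 9 libraries.

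**Figure D1:**
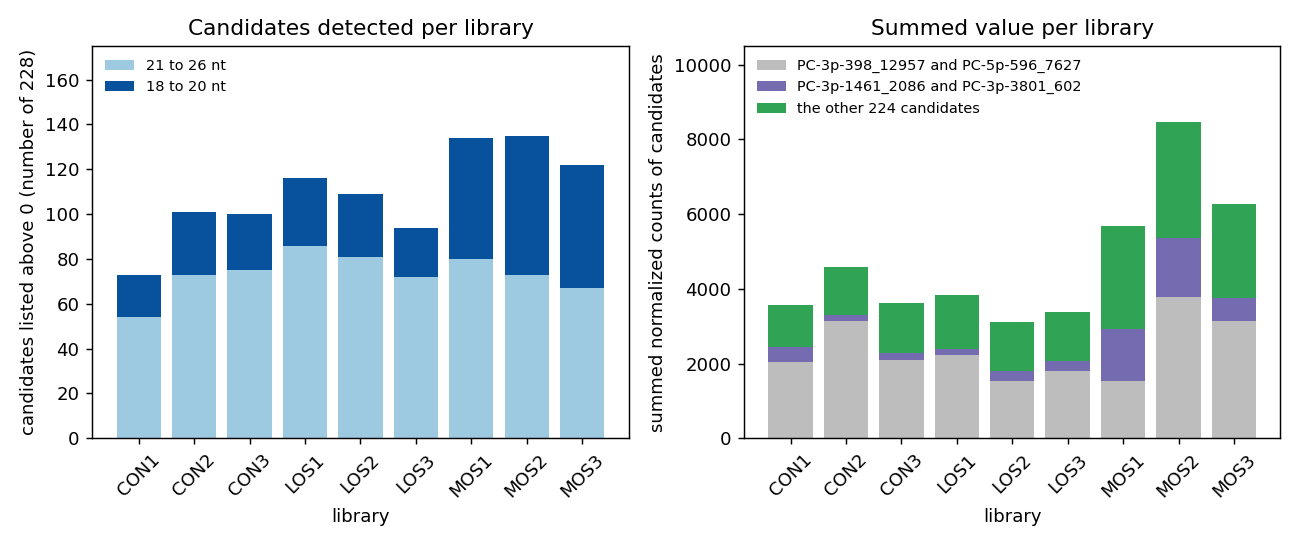
Left, the number of the 228 candidates listed above 0 in each library, with those of 21 to 26 nt at the bottom of each bar and those of 18 to 20 nt on top. Right, the summed normalized counts of the candidates in each library, split into the 2 most abundant candidates, the next 2 and the other 224. The 18 to 20 nt class counts 54 to 62 candidates in MOS and at most 30 elsewhere.

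The number of candidates detected differed most in the short class. In CON, 73, 101 and 100 candidates were above 0 in libraries 1 to 3, in LOS 116, 109 and 94, and in MOS 134, 135 and 122. Candidates of 18 to 20 nt numbered 19 to 28 in CON, against 22 to 30 in LOS and 54 to 62 in MOS. Candidates over 20 nt numbered 54 to 75 in CON, against 72 to 86 in LOS and 67 to 80 in MOS. MOS libraries thus listed more short candidates than any other library, although their estimated depth was similar to or lower than that of the other groups. The estimated depth of CON library 1, with the fewest candidates, was also low (8827764).

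Most candidates were rare and seen in few libraries. Only 44 of the 228 were above 0 in all 9 libraries, against 639 of the 1117 other entries, and 59 were above 0 in a single library, against 118 of 1117. The condition for testing, 3 or more libraries with a normalized count of 10 or higher, was reached by 62 candidates (27.2%) and by 695 of the 1117 other entries (62.2%). Just inside this limit were PC-3p-18224_90 and PC-3p-32412_41, whose third-highest value was 10.2. Just outside were PC-3p-36433_34, PC-3p-53495_16 and PC-5p-27013_54, whose third-highest value was 9.98. The second number in a candidate name rose with its summed value (Spearman's rho 0.964 over the 228 candidates, given as a description), ranging from 4 to 12957. No source used here states what it counts.

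The candidates spanned the whole size range and were often rich in GC. They ranged from 18 to 26 nt with a median of 22 nt, the usual length of a Dicer product, and 70 of the 228 had that length. Those of 18 to 20 nt made up 35.1% of the candidates, with 42 of the 92 5p candidates and 38 of the 136 3p candidates. Among the other entries these lengths made up 19.8% of the known entries (174 of 877) and 77.9% of the predicted opposite arms of known hairpins (187 of 240), so that the candidates lay between them. The GC content ranged from 16.7 to 95.0% with a median of 57.9%, against a median of 50% in the other entries. A GC content of at least 60% was found in 96 candidates (42.1%), in 18.6% of the 877 known entries and in 102 of the 240 opposite arms (42.5%). A first base of T, the base that Argonaute prefers at the 5′ end as uracil, opened 90 of the 228 candidates (39.5%) and 406 of the 1117 other entries (36.3%). Among the 62 tested candidates 27 were 5p and 35 were 3p, 24 had 18 to 20 nt, 30 began with T and the median GC content was 53.4%.

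Candidates seen in one group alone were mostly MOS candidates. Above 0 in MOS alone were 60 candidates, of which 39 had 18 to 20 nt and 34 a GC content of at least 60%. Above 0 in LOS alone were 19, of which 1 was of 18 to 20 nt, and in CON alone 15, of which 3 were. The other entries showed the same order, with 115 of 1117 above 0 in MOS alone (10.3%, against 26.3% of the candidates), 48 in LOS alone and 26 in CON alone, and 82 of the 115 had 18 to 20 nt. In all 3 libraries of MOS and at 0 in the other 6 were 16 candidates, 15 of them of 18 to 20 nt, with a median GC content of 73.1%. Among the other entries 37 of 1117 did so (3.31%, against 7.02% of the candidates), 32 of them of 18 to 20 nt. No difference between candidates and other entries was tested here. For LOS this was 1 candidate, PC-3p-75079_6, with 7.48, 3.39 and 3.80 normalized counts, and for CON it was 0, beside 3 and 0 of the other entries. Of the 16, only 4 reached the limit for testing, among them PC-5p-22188_70, PC-3p-13342_131 and PC-3p-33845_38. The other 12 included PC-3p-31766_42 with 43.6, 37.0 and 4.33 in the MOS libraries and PC-3p-36268_34 with 17.5, 6.37 and 30.3.

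The first comparison, LOS against CON, addressed the response to the low dose. Values plus 1 were fitted on the log2 scale with limma over all 9 libraries, with Benjamini-Hochberg adjustment over the 757 tested entries. On this basis 2 of the 62 candidates were higher at an adjusted p under 0.05 and 0 were lower. Over all tested entries 2.51% were higher and 0.396% were lower. At an unadjusted p under 0.05 there were 6 candidates. The median log2 fold change was 0.08 over the tested candidates and 0 over all tested entries. Groups did not overlap for 7 candidates that were higher and 3 that were lower, against 12.4 and 8.19% of all tested entries. A single value of 3 against 3 libraries can reach an exact two-sided permutation p of 0.1 at the lowest, which any candidate without overlap has.

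PC-5p-9551_196, 20 nt long with a GC content of 75%, rose in LOS and stood at a similar level in MOS. Its normalized counts were 8.85, 14.3 and 4.51 in CON, 63.9, 83.1 and 42.7 in LOS and 94.8, 61.2 and 60.7 in MOS. Every treated library lay above every CON library, and the LOS and MOS ranges overlapped. The log2 fold change was 2.72 (SE 0.40, limma adjusted p = 0.00432) in LOS and 2.93 (SE 0.40, limma adjusted p = 0.00041) in MOS. MOS against LOS gave 0.21 (SE 0.40, limma adjusted p = 0.748), which does not show that the doses act alike. Both doses share the CON libraries. Its seed was shared with 1 other entry, efu-mir-361-p3, a predicted arm of a hairpin named from another species that did not reach the limit for testing (6.86, 12.1 and 0 normalized counts in MOS, 1.70 in LOS library 2 and 0 elsewhere).

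PC-5p-11132_163, a 19 nt candidate with a GC content of 36.8%, was the other call. It had 0, 0 and 2.26 normalized counts in CON, 21.8, 10.6 and 18 in LOS and 44.3, 68.8 and 17.9 in MOS. CON stood apart from both doses, while MOS library 3 lay within the LOS range. The log2 fold change was 3.53 (SE 0.61, limma adjusted p = 0.0108) in LOS and 4.72 (SE 0.61, limma adjusted p = 0.000325) in MOS, and its size depends on the 1 added to values near 0. No CON library reached 10, but all 3 libraries of either dose did, so that neither dose needed its own values to be tested against CON. The LOS call was lost without CON library 2 (adjusted p = 0.0548), LOS library 1 (0.0688) or LOS library 3 (0.0588) and with 10 added in place of 1 (0.111), all by limma. Without MOS library 3, MOS against LOS gave 1.71 (limma adjusted p = 0.0435), against 1.19 (0.178) with it.

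The second comparison, MOS against CON, addressed the high dose. Of the 62 tested candidates 18 were higher and 2 lower by the same test, against 20.2% higher and 9.11% lower over all tested entries. At an unadjusted p under 0.05 there were 24 candidates. Groups did not overlap for 21 that were higher and 5 that were lower, against 26.2 and 15.2% of all tested entries. The median log2 fold change was 0.40 over the tested candidates and 0.07 over all tested entries. With equal library totals these medians were 0.60 and 0.28, and the calls were again 18 and 2. The medians include fitted values of candidates listed at 0 in CON, which depend on the added 1. Over all tested entries that scaling moved the calls from 153 higher and 69 lower to 194 and 31. The limit for testing bears on these counts, because 11 of the tested candidates had all 3 MOS libraries at 10 or more and no CON or LOS library at 10, so that they could pass only by differing. Among the 27 candidates with at least 10 in every CON library, 2 were higher and 2 lower, with a median of 0.01, and among the 576 other entries of that kind 64 were higher and 64 lower, with a median of -0.02. This condition selects on CON values and so favors entries that fall. PC-5p-44499_24, among the 2 lower candidates, needed its CON libraries to be tested.

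The length of the candidates called higher at the high dose has to be read beside the limit for testing. Of the 24 tested candidates of 18 to 20 nt 15 were called higher in MOS than in CON and 1 lower, and of the 38 over 20 nt 3 were higher and 1 lower. However, 9 of the 11 candidates tested only through MOS were of 18 to 20 nt. Among candidates with at least 10 in 3 or more of the 6 CON and LOS libraries, a condition chosen after the data were seen, 5 of 12 of 18 to 20 nt were higher and 1 lower, with a median log2 fold change of 0.23. Of those over 20 nt 1 of 29 was higher and 1 lower, with a median of 0.12. Under that condition 22 of 91 other entries of 18 to 20 nt were higher and 1 lower, and of 530 over 20 nt 56 were higher and 66 lower. Over all tested candidates 9 of 27 with the 5p tag and 9 of 35 with the 3p tag were higher, as were 10 of 20 with a GC content of at least 60% and 8 of 42 under it. The predicted opposite arms of known hairpins, which are also inferred products, had 50 higher and 3 lower of 95 tested. The counts by arm tag, by GC content and of the opposite arms were not redone under that condition. The limit for testing therefore bears on them too. The classes overlap and no difference between them was tested.

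**Figure D2:**
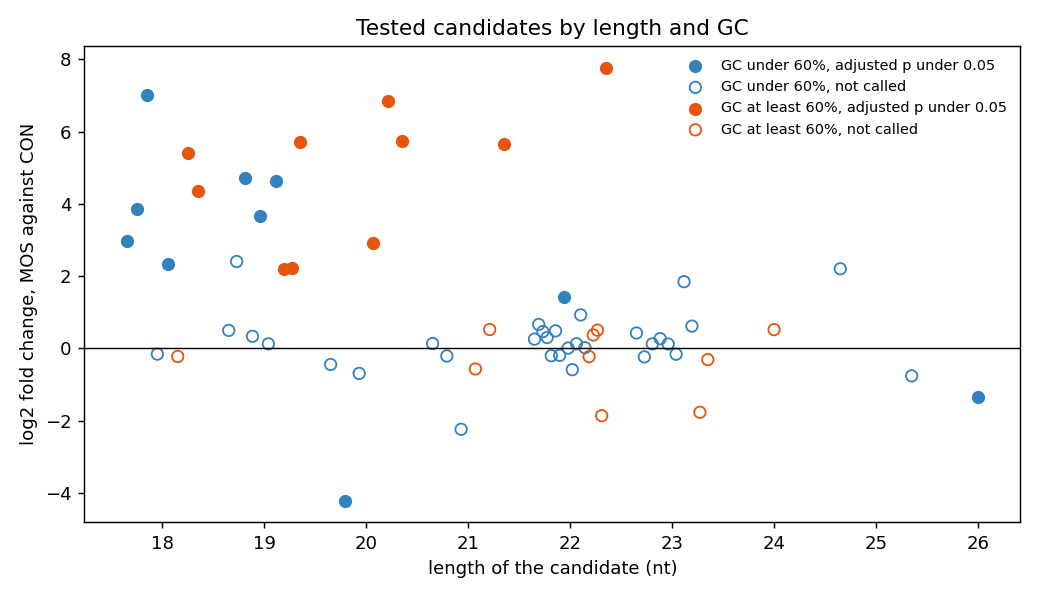
Log2 fold change of MOS against CON (on the log2 of normalized counts plus 1) for the 62 tested candidates, placed by length in nt and spread sideways only to separate points. Filled points have an adjusted p under 0.05 and colors give the GC class. The 18 candidates called higher lie at 18 to 22 nt, 15 of them at 18 to 20 nt, and where a group is listed at 0 the plotted value depends on the added 1 and is no measure of fold.

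Several of the candidates called were at or near 0 without H2O2 and abundant at the high dose. They belong to the 11 that were tested only through MOS, so their values are given as a description, without p. PC-5p-4753_459, of 22 nt and 86.4% GC, was listed at 0 in all CON libraries, at 0, 1.70 and 0 in LOS and at 269, 282 and 134 in MOS. PC-3p-21755_72, of 18 nt and 44.4% GC, was at 0 in all CON libraries, at 0, 3.39 and 0 in LOS and at 79.2, 122 and 212 in MOS. In both, every MOS library lay above every other library. PC-5p-22188_70 was listed at 0 in all 6 CON and LOS libraries and had 88.5, 139 and 119 in MOS. PC-3p-13342_131, listed at 0 outside MOS, had 52.4, 61.2 and 44.4 there, and PC-3p-33845_38, also listed at 0 outside MOS, had 11.2, 20.4 and 31.4. No fold is given for these, because CON was listed at 0. GC content was 80% in PC-5p-22188_70, 88.9% in PC-3p-33845_38 and 90% in PC-3p-13342_131. PC-5p-12571_141, with 89.5% GC, was at 0 in CON, at 3.40, 0 and 0 in LOS and at 32.4, 61.2 and 67.2 in MOS.

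A second set was detected at low levels in CON and LOS and was higher in MOS. PC-5p-6765_300 had 3.16, 1.79 and 0 normalized counts in CON, 2.04, 4.66 and 1.90 in LOS and 81.7, 95.6 and 109 in MOS. PC-3p-21836_71 had 0, 0 and 4.51 in CON, 4.76, 3.39 and 5.69 in LOS and 23.7, 19.1 and 33.6 in MOS. Both were tested only through MOS, and their MOS libraries stood above all others. PC-5p-12443_142 had 0, 5.36 and 6.32 in CON, 11.6, 4.24 and 6.64 in LOS and 82.3, 113 and 72.6 in MOS. It reached 10 in 1 library outside MOS, so that it too needed MOS to be tested and is given without p. PC-5p-12444_142, whose lowest CON value was 8.93, had 47.4, 53.5 and 85.6 in MOS, and rose by 2.23 on the log2 scale (SE 0.34, limma adjusted p = 0.000789). These 4 candidates had 18 or 19 nt, and in each the MOS libraries lay above all CON and LOS libraries.

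PC-3p-1461_2086 and PC-3p-3801_602 followed the top pair in abundance, and their sequences end in the same 9 bases, in capitals here to show what the 2 candidates share.
PC-3p-1461_2086: attccacctTTCCCGTGG
PC-3p-3801_602: ttcctccacgTTCCCGTGG
Of the 1345 entries of the table, 3 hold this run, the third being PC-3p-69671_9. PC-3p-1461_2086 had 284, 98.2 and 139 normalized counts in CON, 114, 172 and 197 in LOS and 1001, 1177 and 432 in MOS. PC-3p-3801_602 had 118, 43.8 and 50.5 in CON, 53.7, 89.9 and 88.3 in LOS and 384, 403 and 169 in MOS. Both were at 10 or more in every library, so that neither entered the test through MOS alone, and in both the MOS libraries lay above the rest. The log2 fold change in MOS was 2.34 (SE 0.45, limma adjusted p = 0.00366) for PC-3p-1461_2086 and 2.20 (SE 0.44, limma adjusted p = 0.00428) for PC-3p-3801_602. The ratio of the first to the second stayed within 2.24 to 2.75 in CON, against 1.92 to 2.24 in LOS and 2.56 to 2.92 in MOS.

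Another 3 candidates were called higher against CON, namely PC-3p-19490_83, PC-5p-23319_66 and PC-3p-32610_41. PC-3p-19490_83 had 0, 4.46 and 0 normalized counts in CON, 8.84, 5.09 and 4.74 in LOS and 18.7, 25.5 and 20.6 in MOS, and was tested only through MOS. Its LOS values lay between the other groups. PC-5p-23319_66, of 22 nt, had 7.58, 9.82 and 23.5 in CON, 27.9, 18.7 and 23.7 in LOS and 37.4, 44.6 and 23.8 in MOS (1.42, limma adjusted p = 0.0289). MOS library 3 lay just above the highest CON value, and the call was lost without CON library 1 (limma adjusted p = 0.103), CON library 2 (0.094), MOS library 1 (0.0675) or MOS library 2 (0.105). PC-3p-32610_41 had 6.32, 0 and 7.22 in CON, 7.48, 0 and 0 in LOS and 37.4, 31.9 and 21.7 in MOS. It was tested only through MOS, and its call was lost in 14 of 20 alternatives, among them each CON or MOS library left out. PC-3p-20836_76 was called higher against LOS and not against CON. It reached 10 in 1 library outside MOS and so needed MOS to be tested, and the call was lost without LOS library 1, LOS library 3 or MOS library 2. Its normalized counts were 10.1, 8.93 and 0 in CON, 0, 3.39 and 0 in LOS and 32.4, 37.0 and 11.9 in MOS.

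**Figure D3:**
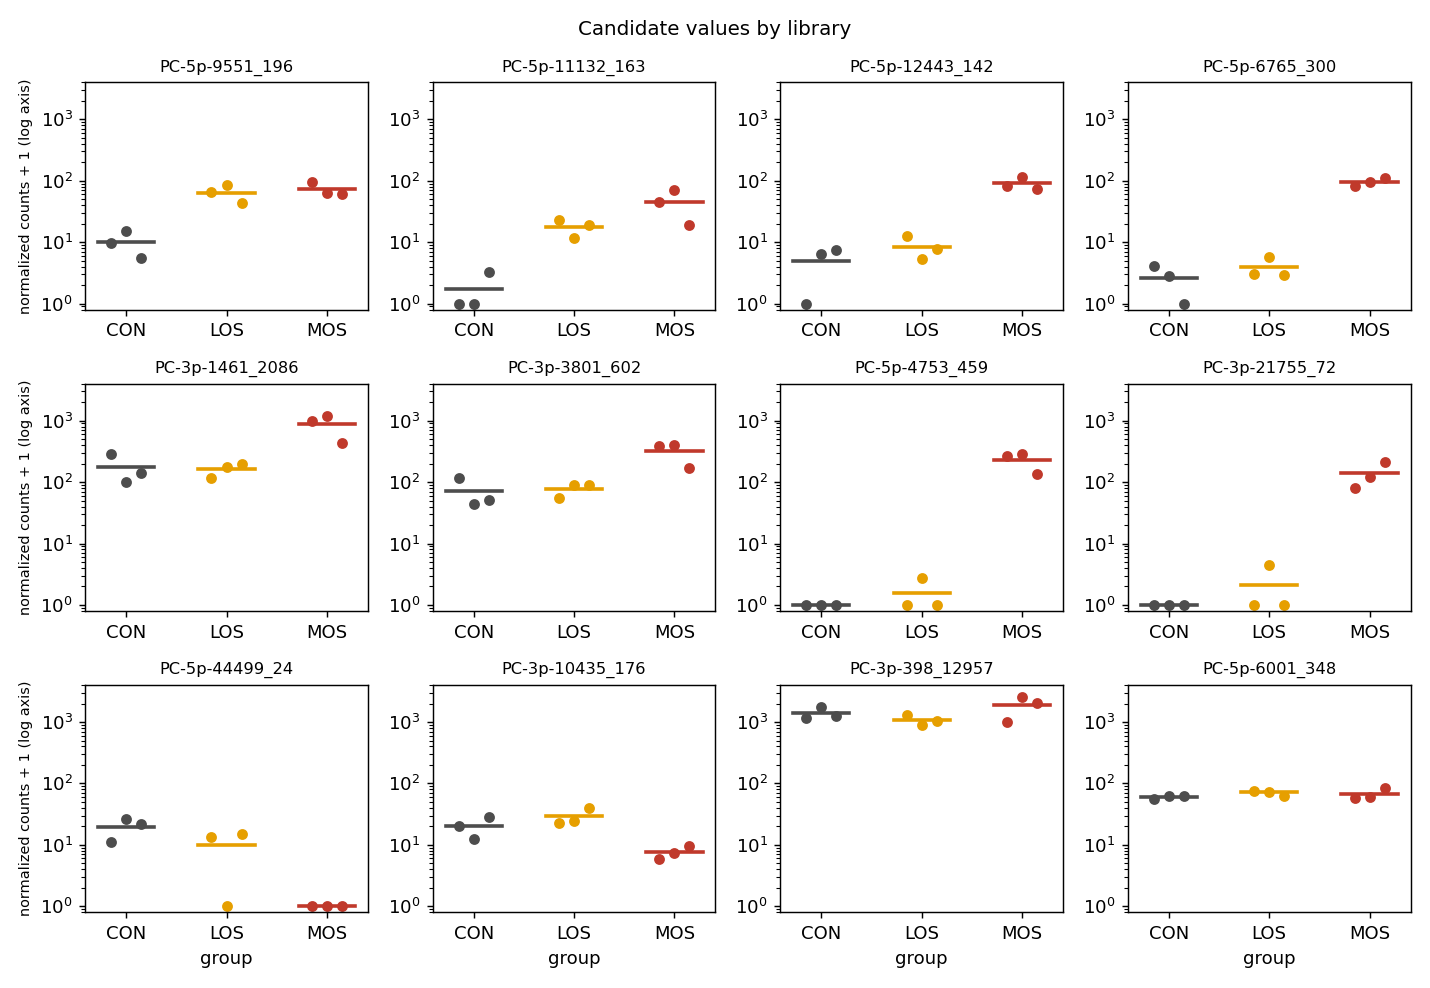
Normalized counts plus 1 on a log axis for 12 candidates in CON, LOS and MOS. Points are libraries and bars are group means. PC-5p-9551_196 and PC-5p-11132_163 are high in both treated groups, the next 6 candidates are high in MOS, PC-5p-44499_24 and PC-3p-10435_176 are low in MOS, and PC-3p-398_12957 and PC-5p-6001_348 were not called.

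PC-5p-44499_24 and PC-3p-10435_176 were the candidates called lower in MOS than in CON. PC-5p-44499_24, of 20 nt, had 10.1, 25.0 and 20.8 normalized counts in CON and 12.2, 0 and 14.2 in LOS, and was listed at 0 in all MOS libraries. It needed its CON libraries to be tested, so no p against CON is given. PC-3p-10435_176, the one candidate of 26 nt, with a GC content of 23.1%, had 19.0, 11.6 and 27.1 in CON, 21.8, 23.7 and 38.9 in LOS and 4.99, 6.37 and 8.67 in MOS. All its MOS values lay under all its CON and LOS values. It fell by 1.35 on the log2 scale against CON (SE 0.38, limma adjusted p = 0.0256) and by 1.91 against LOS (SE 0.38, limma adjusted p = 0.00469). The call against CON was lost without CON library 1 (limma adjusted p = 0.0733), CON library 3 (0.0973), MOS library 1 (0.067) or MOS library 2 (0.0679), whereas the call against LOS was kept in each of the 20 alternatives. PC-3p-39317_30 did not reach the limit for testing, with 7.58, 5.36 and 7.22 in CON, 2.72, 5.09 and 0 in LOS and 0, 0 and 4.33 in MOS.

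The third comparison, MOS against LOS, set the doses against each other. Of the 62 candidates 16 were higher and 1 lower, against 18.9% higher and 10.8% lower over all tested entries, and 23 passed an unadjusted p under 0.05. Groups did not overlap for 19 candidates that were higher and 4 that were lower, against 24.6 and 16.5% of all tested entries. The candidates had a median of 0.22 and all tested entries a median of 0.08. Under equal totals these medians were 0.45 and 0.32, and 19 candidates were higher and 1 lower, while the calls over all tested entries moved from 143 higher and 82 lower to 229 and 44. By length, 13 of 24 candidates of 18 to 20 nt and 3 of 38 over 20 nt were higher, and 3 of 12 and 1 of 29 when the CON and LOS libraries alone decided what was tested. Both candidates called in LOS were also higher in MOS than in CON and were not called between the doses. PC-5p-44499_24, listed at 0 in all MOS libraries, had a limma adjusted p of 0.0639 against LOS. It was called once LOS library 2, its only LOS library at 0, was left out. Leaving that library out sets the groups apart by choice, so no p is given for that fit.

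Library 3 of MOS moved these counts. Without it 24 candidates were called in MOS against CON, of which 19 were shared with the 20 above, and 21 in MOS against LOS, of which 16 were shared with the 17. PC-5p-19876_81 was among those gained, called lower against both CON and LOS. It needed CON and LOS libraries to be tested and the MOS libraries left were listed at 0, so neither p nor fold is given. Its values were 8.85, 12.5 and 10.8 in CON, 9.52, 12.7 and 9.49 in LOS and 0, 0 and 14.1 in MOS. With MOS library 3 it was called against neither CON nor LOS. Over the 62 tested candidates, Pearson's r on log2 values was 0.769 to 0.888 between MOS libraries, 0.860 to 0.908 between CON libraries and 0.865 to 0.949 between LOS libraries. Between groups r was 0.808 to 0.889 for CON with LOS and 0.215 to 0.354 for CON with MOS. The 62 include the 11 candidates tested only through MOS, which bears on r with MOS. Over all tested entries r was 0.972 to 0.985 for CON with LOS and 0.881 to 0.920 for CON with MOS. These correlations run across entries and serve as a description.

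The most abundant candidates did not pass the test. PC-3p-398_12957 had 1158, 1766 and 1250 normalized counts in CON, 1285, 888.5 and 1055 in LOS and 992.5, 2523 and 2060 in MOS. Its MOS libraries lay on both sides of CON (log2 fold change 0.34, SE 0.32, limma adjusted p = 0.462), and without MOS library 1 the value was 0.74 (limma adjusted p = 0.0348). Against LOS it was 0.70 (limma adjusted p = 0.133), and without MOS library 1 it was 1.10 (0.00525). PC-5p-596_7627 had 886, 1380 and 834 in CON, 950, 652 and 734 in LOS and 540, 1263 and 1083 in MOS (log2 fold change against CON -0.15, SE 0.32, limma adjusted p = 0.755), a value that turned to 0.22 without MOS library 1 (limma adjusted p = 0.548). The pair moved in parallel from library to library. The ratio of PC-3p-398_12957 to PC-5p-596_7627 was 1.28 to 1.5 in CON, against 1.35 to 1.44 in LOS and 1.84 to 2.0 in MOS, where it did not overlap the other groups. The pair was chosen for its abundance and the ratio was not tested.

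The steadiest abundant candidates were longer ones. Among candidates with a mean of at least 50 the smallest spreads over the 9 libraries belonged to PC-5p-6001_348 (coefficient of variation 14.3%), PC-3p-6879_295 (15.2%), PC-3p-4403_502 (17.1%) and PC-3p-7276_274 (20.3%), all of 21 to 23 nt. PC-5p-6001_348 had 55.6, 60.7 and 61.4 normalized counts in CON, 75.5, 72.9 and 62.6 in LOS and 57.4, 58.6 and 82.3 in MOS. PC-3p-7276_274 had 43.0, 44.6 and 59.6 in CON, 46.3, 67.8 and 54.1 in LOS and 77.3, 65.0 and 56.3 in MOS. Neither was called in any comparison. PC-3p-6879_295 was not called either (log2 fold change in MOS -0.31, SE 0.21, limma adjusted p = 0.307), but was called lower without MOS library 3 (-0.51, limma adjusted p = 0.0338). In all, 40 of the 62 tested candidates were called in no comparison, and 7 of those 40 had 18 to 20 nt.

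The 3p candidates often ended in the same 3 bases. The sequences below are the most abundant of this kind, with the last 3 bases in capitals.
PC-3p-6879_295: tcacccacccccttccctccAGT
PC-3p-4403_502: cttctctgttacttccctcAGT
PC-3p-4426_498: tcattctccttctttgaccAGT
PC-3p-14007_124: atctgtctgtgtctctgagcAGT
An end in AGT, searched on the listed strand alone, was found in 40 of the 136 3p candidates (29.4%) and in 3 of the 92 5p candidates. It was found in 54 of the 1117 other entries (4.83%) and in 97 of all 1345 entries (7.21%). Nearly all of these 3p candidates were long, with 39 of 98 over 20 nt (39.8%) and 1 of 38 at 18 to 20 nt. Before the AGT a median of 78.4% of the bases of these 40 candidates were pyrimidines (C or T), against 57.9% for the 3p candidates over 20 nt without that end. An end in AG itself was found in 2 of the 136 3p candidates (1.47%) and in 42 of the 1117 other entries (3.76%). AG and 1 more base, AGT included, ended 52 of the 136 (38.2%) and 108 of the 1117 (9.67%). A stretch of pyrimidines ahead of AG is also the usual form of the end of an intron, where AG comes last. No genome was used here, and the position of these candidates relative to introns was not analysed. The motif was noticed in the sequences and carries no test.

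Few candidates that end in AGT were abundant enough to test. Of the 40 3p candidates with this end 7 were tested, and 0 of them were called in any comparison by limma (lowest adjusted p 0.625 in LOS against CON, 0.287 in MOS against CON and 0.0809 in MOS against LOS). Over all tested entries 2.51% were higher and 0.396% lower in LOS against CON, so that 0 of 7 there is near that background, and the shares for the other comparisons are given above. At an unadjusted p under 0.05 there were 0 in LOS against CON, 0 in MOS against CON and 1 in MOS against LOS. Their log2 fold changes in MOS against CON ranged from -0.59 to 0.30. PC-3p-4403_502 had 64.5, 62.5 and 74.9 normalized counts in CON, 63.3, 40.7 and 63.6 in LOS and 48.6, 58.6 and 69.3 in MOS. PC-3p-4426_498 had 36.7, 49.1 and 65.0 in CON, 59.2, 50.9 and 53.1 in LOS and 66.1, 73.9 and 45.5 in MOS. The groups overlapped in both. Without MOS library 3, PC-3p-6879_295 was called lower against CON, as given above, and PC-3p-20061_80 was called lower against LOS. With that library left out PC-3p-20061_80 reached the limit for testing only with its LOS libraries, so no p is given for that fit. Without the limit for testing PC-3p-75079_6, which also ends in AGT, was called higher in LOS than in CON and lower in MOS than in LOS. It was named because it was listed in LOS alone, so that neither p nor fold is given.

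**Figure D4:**
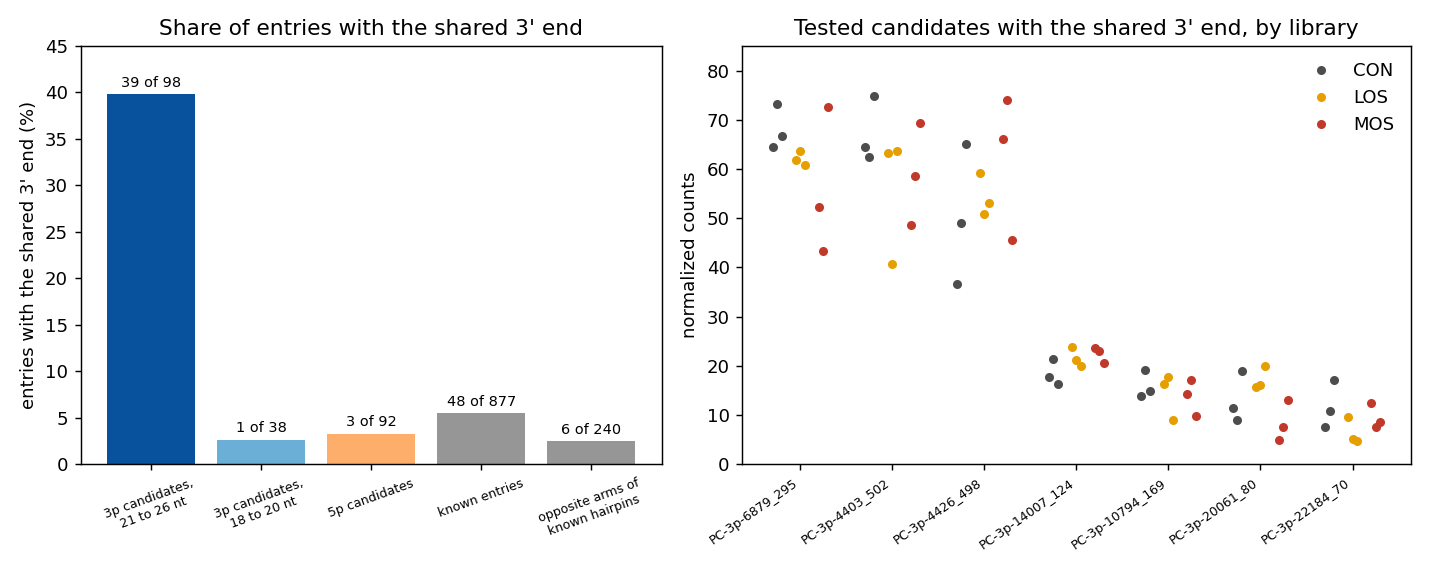
Left, the percentage of entries whose last 3 bases are those shared by many 3p candidates, for 3p candidates of 21 to 26 nt and of 18 to 20 nt, 5p candidates, known entries and predicted opposite arms of known hairpins, with counts above the bars. Right, the normalized counts of the 7 tested candidates with that end, 1 point a library, colored by group. The shared end is found in 39 of 98 long 3p candidates, and none of the 7 candidates was called in a comparison.

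Some candidates looked like the 2 arms of 1 hairpin. Where a 5p candidate was followed directly in the table by a 3p candidate, 14 of 61 neighbor pairs could form at least 14 base pairs by RNAduplex. For neighbors in the order 3p then 5p this was 5 of 61, for 3p then 3p 4 of 75 and for 5p then 5p 1 of 30. The table does not state which candidates share a hairpin, so the pairing is inferred from order and complementarity. Of the 14 pairs 7 had the 3p arm higher, and in 2 both arms were tested. The following pair could form 21 base pairs at -32.3 kcal/mol.
PC-5p-6001_348: aGACGGATgaccttgctgttt
PC-3p-8541_227: tAAGCAGCaaggttgtctgtct
PC-3p-8541_227 had 34.1, 42 and 32.5 normalized counts in CON, 24.5, 22.9 and 38.9 in LOS and 54.9, 43.3 and 55.3 in MOS. The 5p to 3p ratio was 1.45 to 1.89 in CON, against 1.61 to 3.19 in LOS and 1.05 to 1.49 in MOS, so that the 5p arm was higher in all 9 libraries. PC-3p-8541_227 was called in MOS against LOS (log2 fold change 0.84, SE 0.26, limma adjusted p = 0.0341), but not in MOS against CON (0.49, SE 0.26, limma adjusted p = 0.187), and lost the first call in 8 of 20 alternatives, among them without CON library 3 (limma adjusted p = 0.0509), LOS library 1 (0.115), LOS library 2 (0.119) or MOS library 1 (0.0814).

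Other pairs were strongly uneven. PC-5p-9041_212 had 10.3 to 14.8 normalized counts in all 9 libraries, while its inferred partner PC-3p-84889_4 was listed in LOS library 2 alone, at 1.70. PC-3p-7276_274 and PC-3p-8416_231 were the higher arms of pairs with PC-5p-42313_26 and PC-5p-72468_8, whose means over the 9 libraries were 3.0 and 0.976 against 57.1 and 26.7. In known miRNA hairpins, too, one arm is commonly far more abundant than the other.

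A few candidates were near copies of other entries of the table. A run of at least 15 bases was shared with an entry that is no candidate by 13 candidates, and 6 of these held such an entry whole. The sequences below show pairs of this kind, with the shared run in capitals.
PC-3p-14007_124: ATCTGTCTGTGTCTCTGAGCAGt
ssc-miR-7135-3p: ATCTGTCTGTGTCTCTGAGCAG
PC-5p-18126_91: cTTCAAGTAACCCAGGATAGGCT
hsa-miR-26a-5p_1ss10TC: TTCAAGTAACCCAGGATAGGCT
PC-3p-26521_55: gTGCACCTGGGCAAGGATTCTGt
ssc-miR-500_R+2: aTGCACCTGGGCAAGGATTCTGa
PC-3p-14007_124 was more abundant than ssc-miR-7135-3p, at 16.2 to 23.8 against 0 to 10.8 normalized counts. PC-5p-18126_91 had a mean of 10.5 beside 15493 for the miR-26a entry inside it, and the ratio of the entry to the candidate ranged from 1104 to 2484. PC-3p-26521_55 had 10.1, 10.7 and 0 in CON, 7.48, 5.09 and 5.69 in LOS and 18.7, 14 and 19.5 in MOS, beside a mean of 1674 for ssc-miR-500_R+2. PC-3p-26521_55 was not called in any comparison. It needed MOS to be tested, so that it is given without p. Reads of such pairs differ only at their ends, so the authors' counting may have divided them, and their values are uncertain.

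Shared seeds were few. Among the 228 candidates 6 seeds occurred in 2 candidates each, and 22 candidates shared a seed with an entry that is no candidate. PC-3p-6213_333 shared its seed with ssc-miR-143-3p, an abundant miRNA of these cells.
PC-3p-6213_333: tGAGATGAgagcccttggccact
It had 50.6, 40.2 and 46.9 normalized counts in CON, 42.9, 41.5 and 43.7 in LOS and 98.5, 110 and 32.5 in MOS, where library 3 lay below CON and the others above (log2 fold change 0.62, SE 0.40, limma adjusted p = 0.266). Without MOS library 3 the value was 1.17 (limma adjusted p = 0.000981). PC-5p-11687_154 and PC-5p-36325_34 shared 22 bases from the 5′ end and had means of 15.8 and 4.21. PC-5p-18681_87, at 3.39 to 13.5 in the 9 libraries, was the start of PC-5p-81506_5, which was seen in LOS library 1 alone. PC-5p-71473_8 and PC-3p-71473_8 were the same sequence under both arm tags, at 4.33 in MOS library 3 and 0 elsewhere. All 9 values were shared with another candidate by 50 candidates, 0 of them tested.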

How the data were processed

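Small RNA was sequenced from 9 PGC libraries (TruSeq small-RNA kit, Illumina). With ACGT101-miR the authors discarded junk, adapter and other non-miRNA reads, matched sequences of 18 to 26 nt to miRBase, aligned the rest to the genome and proposed candidates from hairpins folded with RNAfold. The authors deposited a signal, normalized counts per entry, but the formula and the genome build are not given in the sources used here. Paper and labels differ on the RNA input per library. All 9 per-sample columns were used. The line with no entry was dropped, which left 1345.

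Entries at 10 or more in at least 3 libraries (757) were fitted with limma 3.58.1 in R 4.3.3 (trend, log2 of the value plus 1, group only, 9 libraries), with Benjamini-Hochberg adjustment per comparison and a call at an adjusted p under 0.05. Each entry has a single spread, shared by the groups. It was tested on simulated data. Duplexes used RNAduplex 2.7.2, and summaries Python 3.11.15. Named candidates were those in the study's table of changed miRNAs, which chose them on these libraries (PC-5p-9551_196, PC-5p-11132_163, PC-5p-6765_300, PC-5p-12443_142, PC-3p-21836_71 and PC-3p-39317_30), the 6 most abundant, up to 8 largest calls without overlap and up to 6 fallers per comparison, shared seeds, sequences or values, and the 4 steadiest. Candidates named for the limits of testing, detection, the AGT end, arm pairs, near copies, PC-5p-12444_142 and PC-3p-6213_333 were chosen after their values were seen. Members and lists were chosen with earlier results of these data known. Alternatives were other scalings, added constants, filters, limma without trend, the 6 libraries of a comparison, a replicate block, duplicates removed and each library left out. A fit with library weights was added after seeing the data. 1 called candidate is not reported here.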

Additional observations from a re-analysis of the deposited data

How the results depend on the processing

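No called value changed direction. Of 90 fold changes of named candidates 11, none of them called, had the opposite sign under at least 1 alternative. In LOS against CON the 2 calls, both higher, became 1 with 10 added in place of 1, 4 without the low-value filter, 1 with at least 50 in 3 libraries, and 1 to 3 with a library left out, with 0 lower throughout those. In MOS against CON the 20 calls (18 higher, 2 lower) became 36 (33 higher) without the filter and 8 (8 higher, 0 lower) with at least 50, and the lower calls became 1 in the 6 libraries alone. With a library left out there were 17 to 24 calls, 16 to 20 higher and 1 to 4 lower. In MOS against LOS the 17 calls (16 higher, 1 lower) became 33 (30 higher, 3 lower) without the filter and 7 (7 higher, 0 lower) with at least 50, and 3 were lower with library weights, which gave MOS library 3 the lowest weight (0.172). With a library left out there were 14 to 21 calls, 13 to 18 higher and 1 to 3 lower. The stricter filter left 18 of the 62 candidates to test. Every call was kept in all alternatives for 1 of 2, 17 of 20 and 13 of 17 candidates, leaving aside alternatives in which the filter removed the candidate. The replicate numbers did not pair the libraries (correlation of same-numbered deviations -0.0817 to 0.180, 2 of 9 over 0.1, 4 of 9 libraries best with their own number). With the replicate block there were 2, 20 and 16 calls, PC-5p-23319_66 and PC-3p-20836_76 trading places in MOS against CON. Count models were not run on these normalized values, of which a few of the lowest were not whole multiples of the step. For a candidate, a value of 0 covers anything under 4 steps, which limits what detection shows.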
